A study of Mus musculus with 9 samples.

Results

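The transcripts of 10 receptor tyrosine kinases were followed through 9 libraries of mouse MC38 cells. The genes were chosen by name: Egfr, Erbb2, Erbb3, Met, Axl, Mertk, Pdgfrb, Fgfr1, Igf1r and Insr. All 10 were among the 16399 genes listed in each library, and 9 of them, all but Erbb3, reached the minimum level for testing. That minimum was 1 TPM in at least 3 libraries, where TPM is a transcript abundance scaled for the length of the transcript and to the same total in each library. Of all listed genes, 11287 passed it.

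Receptor tyrosine kinases are membrane proteins with an extracellular domain that binds a ligand and a kinase domain in the cytoplasm. Ligand binding pairs the receptors or, in the insulin receptor family, rearranges a standing pair, the kinases phosphorylate tyrosines on each other, and adaptor proteins then dock there and start the RAS and ERK cascade and the PI3K and AKT cascade. In the colonic epithelium and its carcinomas EGFR, IGF1R, INSR and MET are well known carriers of growth signals, whereas AXL and MERTK belong to the TAM family and PDGFRB is chiefly a receptor of mesenchymal cells.

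MC38 is a colon carcinoma cell line of C57BL/6 mice. MC38-P is the parental line and carries GFP and firefly luciferase. MC38-LM3a and MC38-LM3b (LM3a and LM3b cells below) are sublines of it that were obtained independently, each after 3 rounds of injection into the spleen of immunocompetent mice and recovery of tumour cells from the liver. Each group had 3 biological replicates, and poly(A) RNA was sequenced. Each line is 1 lineage, so a p-value here measures the spread between cultures of that lineage and not between independent selections. Bulk RNA also cannot tell fewer cells with a transcript from less of it per cell.

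The labels call the cells epithelial cells of the colon. Of 12 epithelial markers, 6 reached 1 TPM in some library, led by Krt8 and Krt18, and the summed level of the list was 2004 to 2319 TPM in parental cells, 1592 to 1812 in LM3a and 1585 to 1630 in LM3b cells. Krt8 and Krt18, at means of 1127 and 907 TPM in parental cells, made up most of this sum. In parental, LM3a and LM3b cells Epcam averaged 5.76, 2.05 and 2.21 TPM and Cdx2 2.27, 0.63 and 0.41 TPM. Krt19 averaged 114, 149 and 108 TPM, and Krt20 0.69, 1.48 and 1.15 TPM. Cdh1, Vil1 and Cdx1 of the same list stayed at or below 0.13 TPM in every library. Hepatocyte markers were near absent: 8 of 10 were listed, 1 reached 1 TPM (Apoa2), and Alb was at most 0.29 TPM. Endothelial markers summed to at most 2.59 TPM.

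The values followed transcript length differently between libraries, and the cause was not tested. When each library was set against the mean of its group's other replicates, the difference correlated over genes with transcript length at a Spearman rho of -0.62 in MC38-P replicate 3 and 0.64 in MC38-LM3a replicate 3. In the other MC38-P libraries it was 0.41 and 0.51, in the other MC38-LM3a libraries -0.51 and -0.55, and in MC38-LM3b between -0.01 and 0.02. Replicate 3 is part of the mean that the other MC38-P and MC38-LM3a libraries were set against, so their opposite signs partly follow from it. These values describe genes of the same libraries and carry no p-value. As the receptor transcripts are long, their changes are given on the deposited values and again on values corrected in each library for GC content and transcript length, which are called corrected below. Correction also centres each library.

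Reference promoters are shown for 3 receptors that moved by different amounts: Igf1r, which rose in both sublines, Mertk, which rose in MC38-LM3b, and Axl, the most abundant of the 10. They are the 250 bases before the RefSeq start of each gene (GRCm38.p6), 5′ to 3′ on the strand of the gene. Igf1r lies at chr7:67952007-67952256 on the plus strand, Mertk at chr2:128698665-128698914 on the plus strand and Axl at chr7:25788734-25788983 on the minus strand. Capitals mark matches on either strand to 3 motifs: the GC box GGGCGG, the RUNX core TGTGGT and the FOXO core TGTTTAC.
Igf1r: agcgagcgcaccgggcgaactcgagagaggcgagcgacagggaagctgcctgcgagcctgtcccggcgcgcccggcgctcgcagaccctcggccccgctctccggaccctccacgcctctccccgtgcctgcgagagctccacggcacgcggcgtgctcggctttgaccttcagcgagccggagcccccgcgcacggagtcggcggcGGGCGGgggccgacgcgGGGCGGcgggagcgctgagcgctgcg
Mertk: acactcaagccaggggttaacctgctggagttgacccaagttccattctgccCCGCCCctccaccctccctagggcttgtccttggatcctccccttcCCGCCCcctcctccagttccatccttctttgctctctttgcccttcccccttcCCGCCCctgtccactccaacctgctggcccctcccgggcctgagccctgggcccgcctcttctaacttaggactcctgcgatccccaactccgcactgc
Axl: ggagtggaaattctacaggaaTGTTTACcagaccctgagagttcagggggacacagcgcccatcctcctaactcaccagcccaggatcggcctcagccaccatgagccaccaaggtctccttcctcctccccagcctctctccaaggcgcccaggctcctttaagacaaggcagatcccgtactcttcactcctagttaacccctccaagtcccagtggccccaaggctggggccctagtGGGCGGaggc
The Igf1r sequence was 77.6% G and C and held 2 GC boxes, the Mertk sequence 63.6% with 3 and the Axl sequence 60.0% with 1, beside a median of 52.4% over all 32851 promoters of this length. GC boxes were found in 32.7% of them, the RUNX core in 14.0% and the FOXO core in 3.17%. The FOXO core matched once in Axl and not in Igf1r or Mertk, and the RUNX core matched in none of these 3 windows. The matches are of letters only and say nothing of binding.

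Axl was the most abundant of the 10 receptors in all 9 libraries, from 161.09 to 225.59 TPM, followed by Fgfr1, from 37.99 to 78.42 TPM. Axl made up 57.8% ± 1.80 of the summed receptor TPM in parental cells, 53.3% ± 2.42 in LM3a and 49.2% ± 0.582 in LM3b cells (SD, n = 3). The summed level of the 10 was 317 ± 40.7 TPM in parental cells, 358 ± 60.2 in LM3a and 452 ± 2.10 in LM3b cells. Erbb3 closed the order in every line at 0.10 to 0.29 TPM, below Pdgfrb at 1.15 to 3.80 TPM.

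Between these ends the order differed by line. In MC38-P it ran Met, Mertk, Erbb2, Egfr, Insr and Igf1r, and the neighbours from Mertk to Insr overlapped in their ranges, whereas Igf1r lay below Insr in every library. In MC38-LM3a the same 6 ran Met, Mertk, Igf1r, Erbb2, Egfr and Insr, with each pair of neighbours overlapping. In MC38-LM3b they ran Met, Mertk, Igf1r, Erbb2, Egfr and Insr with no overlap except between Egfr and Insr. Igf1r thus stood in place 8 of 10 in the parental line and in place 5 in both sublines.

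**Figure D1:**
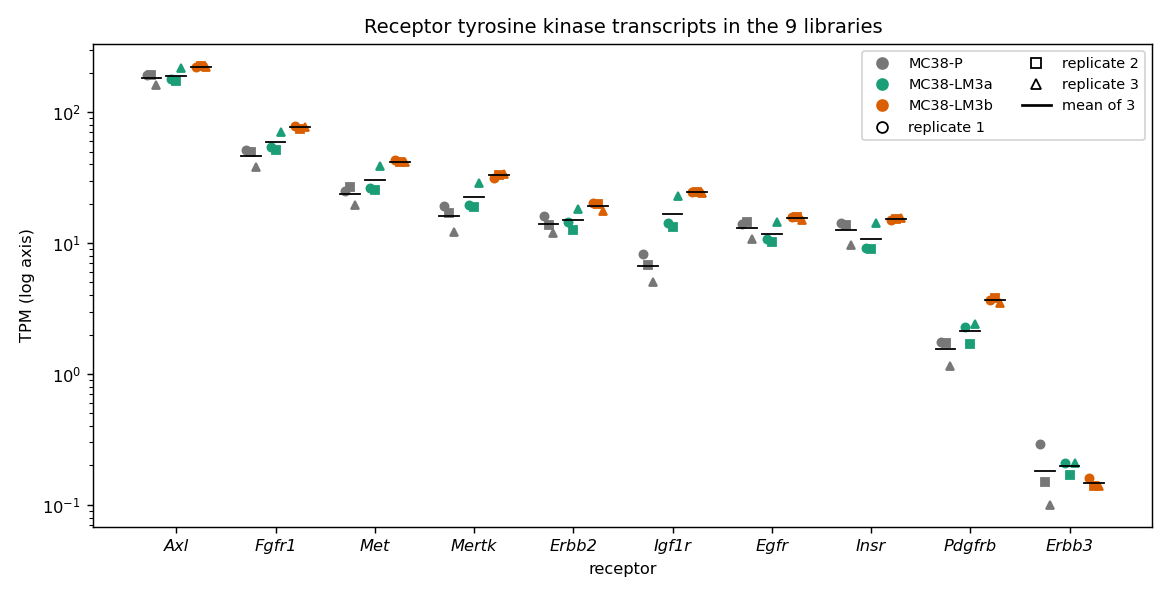
TPM of the 10 receptors in the 9 libraries, on a log axis. Colours mark the lines, symbols the replicates and bars the mean of 3. Axl lies highest and Erbb3 lowest in all lines, and the largest step from MC38-P to both sublines is that of Igf1r, from 5.04 to 8.19 TPM in parental cells to 13.29 to 22.96 in LM3a and 24.31 to 24.72 in LM3b cells.

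Each subline was compared with MC38-P to find which receptor transcripts accompany the derivation of liver-metastatic lines. The comparisons share the MC38-P libraries, and fold changes are on the log2(TPM + 1) scale, which understates changes of low genes. A call is an adjusted p-value under 0.05 from limma, adjusted over all tested genes. In MC38-LM3a 1 of 9 tested receptors was called higher (Igf1r) and 0 lower, where 14.1% of all tested genes were called higher and 13.8% lower, and by limma 3 of the 9 had an unadjusted p-value under 0.05, as had 4347 of the 11287 tested genes (38.5%). In MC38-LM3b 7 of 9 were called higher (Igf1r, Mertk, Pdgfrb, Met, Fgfr1, Erbb2 and Axl) and 0 lower, where 35.6% of all tested genes were called higher and 11.2% lower. The receptors' median log2 fold change was 0.30 for MC38-LM3a and 0.72 for MC38-LM3b, beside medians of 0.00 and 0.21 over all tested genes.

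After correction 7 receptors were called higher in MC38-LM3a, all but Egfr and Insr, where 26.5% of all genes were. In MC38-LM3b 6 were called higher, the same genes without Axl, where 29.3% of all genes were. The corrected medians of the 9 were 0.38 and 0.48, beside 0.01 over all genes in both comparisons. Called higher in both sublines were 1 receptor on the deposited values (13.3% of all genes) and 6 on corrected values (22.7%). The second threshold of the study, set there on DESeq2 results, was an absolute log2 fold change above 1. On the deposited values both thresholds were passed by Igf1r in MC38-LM3a (2.89% of all genes) and by Igf1r and Mertk in MC38-LM3b (3.93%). After correction Igf1r passed both in each subline, at 1.34 and 1.45, while Mertk in MC38-LM3b stayed below the second, at 0.79.

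**Figure D2:**
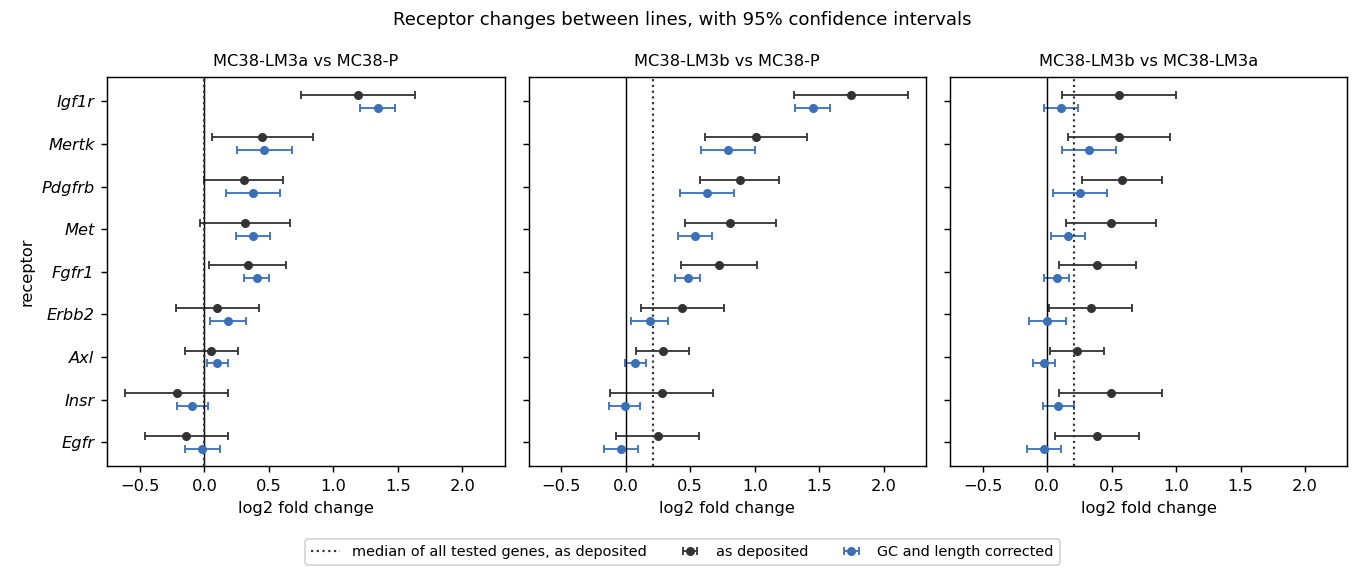
Log2 fold changes of the 9 tested receptors with 95% confidence intervals, on deposited values (black) and after correction for GC content and length (blue). The dotted line is the median of all tested genes on deposited values (0.00, 0.21 and 0.21). Igf1r lies farthest to the right against MC38-P in both sublines, at 1.19 and 1.75, and Egfr and Insr lie at the foot of both panels.

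Igf1r encodes the receptor for IGF1 and IGF2. The gene spans chr7:67952827-68233668 on the plus strand (GENCODE M21, GRCm38). Its transcript measured 8.19, 6.85 and 5.04 TPM in the 3 MC38-P libraries, 14.13, 13.29 and 22.96 TPM in MC38-LM3a, and 24.72, 24.34 and 24.31 TPM in MC38-LM3b. Every subline library lay above every parental one. Igf1r rose by a log2 fold change of 1.19 in MC38-LM3a (SE 0.199, adjusted p = 0.00141, limma), or 2.51-fold in mean TPM. In MC38-LM3b it rose by 1.75 (SE 0.199, adjusted p = 9.4e-05, limma), or 3.65-fold, and these changes ranked 112 and 64 from the top of 11287 tested genes. The corrected changes were 1.34 and 1.45. MC38-LM3a replicate 3 was the highest of its group, and the change in MC38-LM3a was 0.96 without it and 0.79 without both it and MC38-P replicate 3, still called in each case.

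Insr, the insulin receptor and nearest relative of Igf1r, did not pass the test in either subline. It measured 14.21, 13.74 and 9.71 TPM in MC38-P, 9.12, 8.95 and 14.27 TPM in MC38-LM3a, and 14.96, 15.20 and 15.58 TPM in MC38-LM3b. The MC38-LM3a libraries lay on both sides of the parental ones, while those of MC38-LM3b lay above all 3. The log2 difference from MC38-P was -0.21 in MC38-LM3a (95% interval -0.61 to 0.18) and 0.28 in MC38-LM3b, or -0.09 and -0.01 after correction. Without MC38-LM3a replicate 3 Insr was called lower in MC38-LM3a, at -0.42 (adjusted p = 0.0377, limma). In that setting 23.2% of all genes were called lower, and the median over all genes was -0.08.

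Both receptors have long transcripts, of 11409 and 9355 nt, and their ratio was taken within each library. Igf1r to Insr was 0.576, 0.499 and 0.519 in MC38-P, 1.55, 1.48 and 1.61 in MC38-LM3a, and 1.65, 1.60 and 1.56 in MC38-LM3b. All 6 subline libraries lay above all parental ones, by 2.97-fold in geometric mean. The log2 difference in this ratio from MC38-P was 1.54 for MC38-LM3a and 1.60 for MC38-LM3b, and 1.44 and 1.46 on corrected values. An exact two-sided permutation test of the 6 sublines' libraries against 3 gave p = 0.0238, the smallest this design allows, which stayed 0.0238 after adjustment over the 3 receptor pairs examined. For a single subline the smallest possible p is 0.1, and both reached it. The pairs were chosen after the values had been seen, so these p-values restate the separation and give no independent support for it. The 6 libraries are also cultures of single lineages and not independent selections.

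Partners of these receptors were listed with them. IGF1 and IGF2, the ligands, were close to absent as transcripts: Igf1 averaged at most 0.03 TPM and Igf2 at most 0.02 TPM in any line. Grb10 encodes an adaptor that binds the activated insulin and IGF1 receptors and dampens their signal. It measured 14.57, 14.84 and 10.25 TPM in MC38-P, 0.04, 0.02 and 0.02 TPM in MC38-LM3a, and was listed at 0 in all 3 MC38-LM3b libraries. Its log2 change on the fitted scale was -3.77 and -3.81, called in both, but the size of so large a fall rests on the pseudocount. Irs2, a docking protein of both receptors, averaged 7.88 TPM in the parental line, 4.69 TPM in LM3a cells and 6.07 TPM in LM3b cells. It fell by 0.63 in MC38-LM3a (adjusted p = 0.00877, limma) and was 0.31 lower in MC38-LM3b without passing (adjusted p = 0.101), where the corrected value of -0.58 passed.

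**Figure D3:**
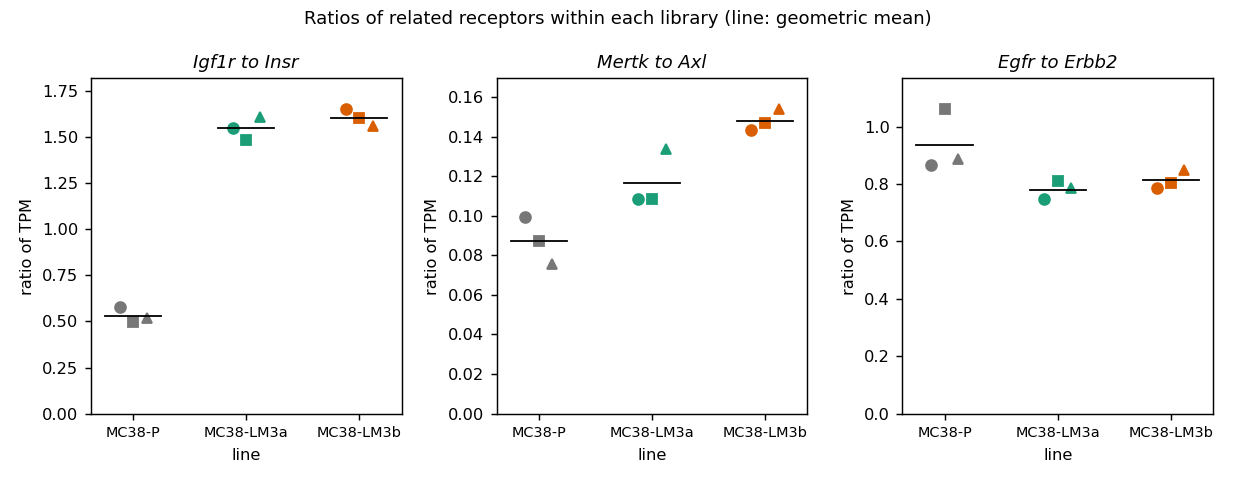
Ratio of TPM within each library for 3 pairs of related receptors, with the geometric mean of 3 as a bar. Igf1r to Insr moves from 0.499 to 0.576 in MC38-P to 1.48 to 1.65 in the sublines, Mertk to Axl rises less, and Egfr to Erbb2 falls from 0.866 to 1.06 in MC38-P to 0.747 to 0.850 in the sublines.

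Axl and Mertk encode TAM receptors, which bind GAS6 and protein S and are known for the uptake of dying cells and for restraint of innate immune signals. Axl (chr7:25757273-25788705, minus strand) measured 192.42, 193.86 and 161.09 TPM in MC38-P, 179.14, 174.37 and 215.77 TPM in MC38-LM3a, and 219.86, 225.59 and 220.73 TPM in MC38-LM3b. MC38-LM3a overlapped the parental range and MC38-LM3b lay above it. Axl rose by 0.29 in MC38-LM3b on the log2 scale (adjusted p = 0.0282, limma), which is 0.08 above the median of all genes, and the corrected change of 0.07 did not pass (adjusted p = 0.113). In MC38-LM3a the difference was 0.05, turning to -0.13 without replicate 3 of both groups, and the corrected value of 0.10 passed (adjusted p = 0.0456).

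Mertk moved further. It measured 19.11, 16.95 and 12.21 TPM in MC38-P, 19.41, 18.95 and 28.82 TPM in MC38-LM3a, and 31.47, 33.17 and 33.98 TPM in MC38-LM3b. The MC38-LM3b libraries all lay above the other 6, while MC38-LM3a overlapped MC38-P. Mertk rose by 1.01 in MC38-LM3b (SE 0.178, adjusted p = 0.00131, limma), or 2.04-fold, and by 0.79 after correction. In MC38-LM3a its difference of 0.45 did not pass (adjusted p = 0.0860), but the corrected 0.47 did (adjusted p = 0.00211).

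The transcripts of Mertk and Axl are almost equal in length, 4302 and 4265 nt. Mertk to Axl was 0.0993, 0.0874 and 0.0758 in MC38-P, 0.108, 0.109 and 0.134 in MC38-LM3a, and 0.143, 0.147 and 0.154 in MC38-LM3b. All 6 subline libraries again lay above all 3 parental ones, by 1.51-fold in geometric mean (exact two-sided permutation p = 0.0238, the smallest the design allows). This pair too was chosen after the values had been seen, so the p-value only restates the separation. The log2 difference in this ratio was 0.42 for MC38-LM3a and 0.77 for MC38-LM3b, and 0.36 and 0.72 on corrected values. Tyro3, the third TAM receptor, moved the other way: 7.17, 6.58 and 5.80 TPM in MC38-P, 3.38, 2.70 and 3.16 TPM in MC38-LM3a, and 3.94, 4.32 and 3.23 TPM in MC38-LM3b. It fell by 0.88 and 0.64 on the log2 scale, called in both, and by 0.82 and 0.87 after correction, and all 6 subline libraries lay below the parental ones.

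Among TAM ligands, Gas6 was at most 0.04 TPM in any library. Pros1, which encodes protein S, averaged 12.66 TPM in the parental line, 13.40 TPM in LM3a cells and 15.03 TPM in LM3b cells, and passed the test in neither subline. As Mertk is also a macrophage gene, markers of leukocytes were set beside it. Of 14, 7 were listed and 2 reached 1 TPM, Cd68 and Cd14, and the sum of the list was 39.2 to 41.0 TPM in parental cells, 48.9 to 53.9 in LM3a and 56.1 to 60.3 in LM3b cells. The other listed markers were low and not tested: Ptprc was at most 0.09, Csf1r 0.14, Lyz2 0.28 and Cd79a 0.45 TPM in any library. Cd163 was at 0.42, 0.29 and 0.12 TPM in MC38-P and at most 0.02 TPM in the sublines, so it was lower there. Cd68 and Cd14 were called higher in both sublines, and their part in the Mertk result was not tested.

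Met, the receptor of hepatocyte growth factor, measured 24.86, 26.63 and 19.56 TPM in MC38-P, 26.13, 25.29 and 38.81 TPM in MC38-LM3a, and 42.95, 41.42 and 41.59 TPM in MC38-LM3b. The last line stood above the other 6 libraries. Met rose by 0.81 there (adjusted p = 0.00231, limma), or 1.77-fold, and by 0.54 after correction. The MC38-LM3a difference of 0.32 did not pass (adjusted p = 0.170) and was 0.12 without MC38-LM3a replicate 3 and close to 0 without both it and MC38-P replicate 3, but the corrected 0.38 passed. Hgf, its ligand, averaged 0.73 TPM in the parental line, 0.18 TPM in LM3a cells and 0.26 TPM in LM3b cells, under the minimum for testing.

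Fgfr1, a receptor of fibroblast growth factors, measured 51.24, 49.59 and 37.99 TPM in MC38-P, 54.11, 51.30 and 70.91 TPM in MC38-LM3a, and 78.42, 74.04 and 76.94 TPM in MC38-LM3b. On these values its 3 groups did not overlap, a pattern it shared only with Igf1r among the 9 tested. The gap of Fgfr1 between MC38-P and MC38-LM3a, 51.24 against 51.30 TPM, was far smaller than the spread within either (SD 7.22 and 10.6). On corrected values Fgfr1 overlapped between the sublines, and Igf1r, Met, Mertk and Pdgfrb were the 4 whose 3 groups stood apart. In MC38-LM3a 2 of the 9 receptors lay wholly above the parental range, where 20.3% of all genes did, and in MC38-LM3b all 9 did, where 51.3% of all genes did. On corrected values 7 of the 9 lay wholly above it in MC38-LM3a (28.4% of all genes), all but Egfr and Insr, and 7 in MC38-LM3b (34.3%), and 4 lay wholly above MC38-LM3a in MC38-LM3b (12.8%). Fgfr1 rose by 0.72 in MC38-LM3b (adjusted p = 0.00173, limma), or 1.65-fold. The difference in MC38-LM3a was 0.34 and missed the threshold (adjusted p = 0.0890), and the corrected values of 0.40 and 0.48 were called in both sublines. Fgf1, a ligand of this receptor, averaged 2.36, 3.32 and 4.07 TPM in the 3 lines, with both sublines wholly above the parental range. It was called higher in MC38-LM3b, at 0.61, and the 0.37 in MC38-LM3a did not pass (adjusted p = 0.0765, limma). After correction it was called in both, at 0.37 and 0.40.

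Pdgfrb, the receptor of PDGF-BB, was low in every line. It measured 1.74, 1.73 and 1.15 TPM in MC38-P, 2.29, 1.69 and 2.42 TPM in MC38-LM3a, and 3.69, 3.80 and 3.48 TPM in MC38-LM3b. It rose by 0.88 in MC38-LM3b (adjusted p = 6.95e-04, limma), or 2.37-fold in mean TPM, and by 0.63 after correction, with no overlap between that line and the others. In MC38-LM3a the difference of 0.30 did not pass (adjusted p = 0.135) and the corrected 0.38 did. Pdgfb, which encodes its ligand, averaged 1.01 TPM in the parental line, 0.05 TPM in LM3a cells and 0.12 TPM in LM3b cells, and was not tested. Of 13 stellate cell and fibroblast markers 10 were listed and 4 tested, of which Col1a1, Col3a1 and Acta2 were called lower in both sublines and Pdgfra passed in neither (-0.23 and 0.09). The sum of the list was 139 to 176 TPM in parental cells, 54.4 to 73.1 in LM3a and 64.6 to 71.1 in LM3b cells. Col3a1 made up most of it, while Col1a2 and Dcn were at most 0.13 TPM in every library.

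Egfr, Erbb2 and Erbb3 encode members of the EGF receptor family. Egfr binds EGF-like ligands, Erbb2 has no known ligand and pairs with the others, and Erbb3 binds neuregulins and has little kinase activity of its own. Egfr measured 13.98, 14.57 and 10.69 TPM in MC38-P, 10.77, 10.23 and 14.43 TPM in MC38-LM3a, and 15.93, 15.88 and 14.96 TPM in MC38-LM3b. It passed the test in neither subline, with log2 differences of -0.14 (SE 0.146, adjusted p = 0.532, limma) and 0.25 (adjusted p = 0.182), or -0.01 and -0.04 after correction.

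Erbb2 measured 16.14, 13.72 and 12.04 TPM in MC38-P, 14.42, 12.61 and 18.36 TPM in MC38-LM3a, and 20.22, 19.75 and 17.60 TPM in MC38-LM3b. It rose by 0.44 in MC38-LM3b (adjusted p = 0.0304, limma), of which 0.23 lay above the median of all genes, and by 0.19 after correction (adjusted p = 0.0296). The value in MC38-LM3a was 0.10, turning to -0.04 without MC38-LM3a replicate 3, and the corrected 0.18 passed (adjusted p = 0.0346). Egfr to Erbb2 was 0.866, 1.06 and 0.888 in MC38-P, 0.747, 0.811 and 0.786 in MC38-LM3a, and 0.788, 0.804 and 0.850 in MC38-LM3b. All 6 subline libraries lay below all 3 parental ones, at 0.853 of the parental geometric mean (exact two-sided permutation p = 0.0238, the smallest the design allows). As with the other pairs, the choice came after the values had been seen, and the p-value only restates the separation. The log2 difference in this ratio was -0.26 for MC38-LM3a and -0.20 for MC38-LM3b, and -0.20 and -0.22 on corrected values. The gap between the nearest values, 0.850 and 0.866, was smaller than the spread within MC38-P.

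Erbb3 was at 0.29, 0.15 and 0.10 TPM in MC38-P, 0.21, 0.17 and 0.21 TPM in MC38-LM3a, and 0.16, 0.14 and 0.14 TPM in MC38-LM3b. With all genes tested and no minimum level, its log2 differences from MC38-P were 0.02 and -0.04 and did not pass.

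MC38-LM3b was then compared with MC38-LM3a directly. All 9 tested receptors had positive log2 differences, from 0.23 for Axl to 0.58 for Pdgfrb, and all but Erbb2 lay above the MC38-LM3a range in every MC38-LM3b library, where 38.4% of all genes did. None of the 9 was called by limma, at adjusted p-values of 0.119 to 0.124. All 9 had an unadjusted p-value under 0.05, as had 4296 of the 11287 tested genes, of which 6 (0.0532%) were called in either direction. Without MC38-LM3a replicate 3 all 9 were called higher, and so were 52.2% of all genes. After correction the median of the 9 fell from 0.49 to 0.09, 0 were called (0.207% of all genes), and Axl, Egfr and Erbb2 lay at -0.03, -0.02 and 0.00. Mertk had the largest corrected difference, 0.33 (adjusted p = 0.136).

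The receptors have long transcripts. The longest annotated one ranged from 4265 nt (Axl) to 11409 nt (Igf1r), and all 10 fell in the upper 2 of 5 classes of length. The median log2 difference of genes in the longest class was -0.06 in MC38-LM3a against MC38-P, 0.32 in MC38-LM3b against MC38-P and 0.37 in MC38-LM3b against MC38-LM3a, and that of the shortest class was 0.05, 0.04 and 0.00. Egfr and Insr, with 0.25 and 0.28 in MC38-LM3b, lay below the median of the longest class, whereas Igf1r, of the same class, lay far above it in both sublines. Mertk, at 1.01, and Axl, at 0.29, are of nearly the same length.

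**Figure D4:**
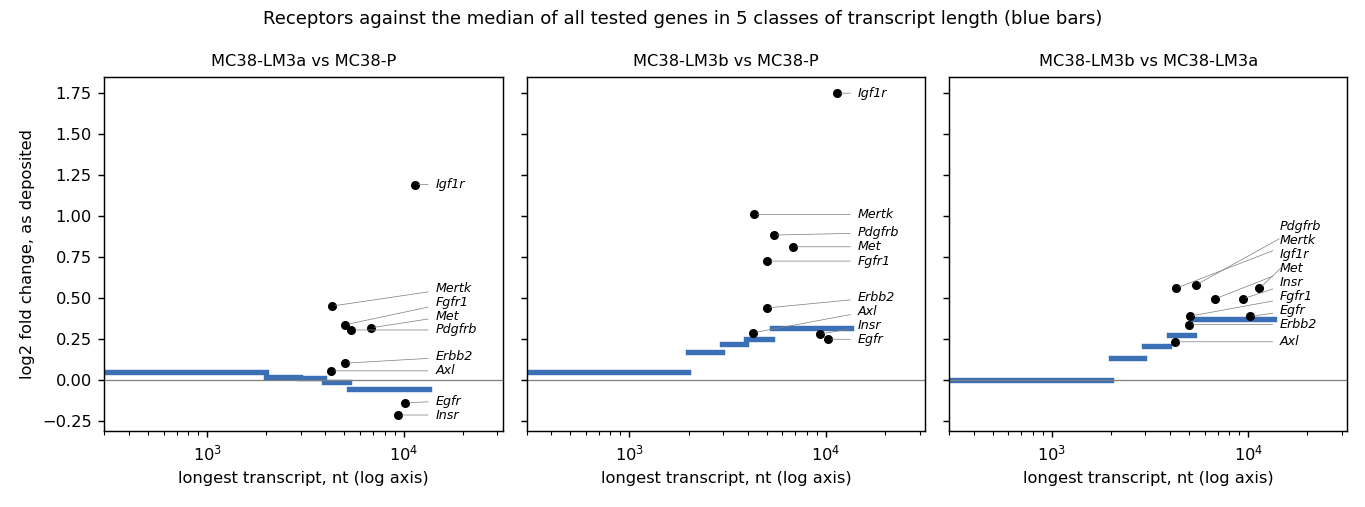
Log2 fold changes of the 9 tested receptors on deposited values against the length of the longest transcript (log axis, bars drawn short of the longest transcripts). Blue bars are medians of all tested genes in 5 classes of length: they run from 0.05 to -0.06 in the left panel, from 0.04 to 0.32 in the middle and from 0.00 to 0.37 on the right, and Igf1r lies above them in each panel.

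Receptors varied together across the 9 libraries, which share groups and the trend along length, so these correlations are a description. On log2(TPM + 1) Mertk and Fgfr1 had r = 0.993, Met and Fgfr1 0.988, and Igf1r and Fgfr1 0.954. After correction these were 0.935, 0.967 and 0.986. Egfr and Insr went from 0.981 to -0.23 and Igf1r and Insr from 0.473 to -0.35. Of all tested genes the 3 most like Igf1r were Tspoap1, Snrk and Hk1 (r = 0.999, 0.998 and 0.998), with 0.996, 0.996 and 0.988 after correction.

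Ligands of the 10 receptors were mostly low. Of 28 in the list 24 were listed, 14 of these stayed under 1 TPM in every library, and 9 were tested. In MC38-LM3a 0 rose and 1 fell, and in MC38-LM3b 3 rose (Ereg, Fgf1 and Tgfa) and 1 fell, and after correction 2 rose and 1 fell in MC38-LM3a and 3 rose and 1 fell in MC38-LM3b. The shares of all genes beside these and the list counts that follow were, on deposited values, 14.1% higher and 13.8% lower in MC38-LM3a and 35.6% and 11.2% in MC38-LM3b, and on corrected values 26.5% and 24.6%, and 29.3% and 28.3%. The ligand that fell in both was Areg (amphiregulin, an EGFR ligand), at 82.69, 90.92 and 90.78 TPM in MC38-P, 62.53, 67.85 and 63.17 TPM in MC38-LM3a, and 63.30, 64.06 and 59.77 TPM in MC38-LM3b, or -0.44 and -0.49 on the log2 scale. Ereg (epiregulin) averaged 15.8, 21.0 and 28.7 TPM and rose by 0.83 in MC38-LM3b, with 0.37 in MC38-LM3a not passing (adjusted p = 0.104, limma). After correction it was called in both, at 0.33 and 0.55. Tgfa averaged 14.5, 14.3 and 19.5 TPM and Hbegf 25.3, 27.1 and 29.6 TPM. Btc averaged 5.46, 5.10 and 6.69 TPM, Nrg1 1.39, 1.04 and 1.65 TPM, and Nrg4 0.997, 0.797 and 0.977 TPM, and these 3 and Hbegf passed in neither subline.

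Other receptor tyrosine kinases split in direction. Of 48 in the list 43 were listed and 17 tested, of which 3 rose and 6 fell in MC38-LM3a and 7 rose and 5 fell in MC38-LM3b. Ephb2, an ephrin receptor of intestinal crypts, measured 25.26, 25.29 and 20.07 TPM in MC38-P, 2.10, 2.30 and 1.99 TPM in MC38-LM3a, and 2.11, 2.22 and 1.72 TPM in MC38-LM3b, and fell by 2.96 and 3.02 on the log2 scale, or by 2.79 and 3.33 after correction. Ephb3 fell by 0.94 and 0.89, from 6.89 TPM to 3.12 and 3.25, and Tyro3 as given above. Rises in both were those of Styk1, a kinase without a known ligand (0.64 and 0.97), and of the ephrin receptors Epha4 (0.49 and 0.70) and Epha2 (0.29 and 0.49). The medians of the 17 were -0.01 and 0.20, beside 0.00 and 0.21 over all genes, and after correction 5 rose and 6 fell in each subline.

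Downstream, 32 of 35 adaptors and proximal effectors were tested. In MC38-LM3a 3 rose and 6 fell, and in MC38-LM3b 15 rose and 3 fell, with medians of 0.05 and 0.33 beside 0.00 and 0.21 over all genes. After correction the counts were 12 and 9, and 12 and 8. Rises in both sublines were those of Dok1 (0.49 and 0.76, corrected 0.53 and 0.69), Gab2 (0.45 and 0.78) and Dok4 (0.36 and 0.47), which encode docking proteins for phosphotyrosine signalling. The falls in both were Grb10, Sh2b2 (0.76 and 0.50 lower), an adaptor of the insulin receptor, and Shc4 (0.55 and 0.46 lower), a member of the SHC adaptor family. The list of attenuators and co-regulators had 27 of 35 tested, with 1 rise and 1 fall in MC38-LM3a and 14 rises and 0 falls in MC38-LM3b, and corrected counts of 6 and 4, and 13 and 2. Ptpn1, a phosphatase that removes phosphate from the insulin receptor, was the one that rose in both, from 60.9 TPM to 74.1 and 83.6.

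Genes that respond to ERK, 20 of 20 tested, gave 2 rises and 1 fall in MC38-LM3a and 8 rises and 2 falls in MC38-LM3b, with medians of -0.04 and 0.24 beside 0.00 and 0.21 over all genes. After correction the counts were 4 and 7 in MC38-LM3a and 7 and 4 in MC38-LM3b. Dusp6, an ERK phosphatase, rose from 38.4 TPM to 52.0 and 56.9 (0.43 and 0.56), as did Epha2, whereas Fos fell from 2.45 TPM to 1.36 and 1.62. Of 14 FOXO-responsive genes, a list that includes Igf1r and Insr themselves, 13 were tested. In MC38-LM3a 3 rose and 4 fell, and in MC38-LM3b 6 rose and 1 fell. After correction the counts were 4 and 4, and 5 and 5. Beside Igf1r, Klf6 (0.43 and 0.82) and Ccng2 (0.41 and 0.66) rose in both and Trib1 fell by 0.86 and 0.67. Between the sublines limma called 0 of the 116 tested genes of these 6 lists on the deposited values, while 63 had an unadjusted p-value under 0.05, beside 38.1% of all genes. After correction 1 gene, of the FOXO-responsive list, was called higher in MC38-LM3b, where 0.0901% of all genes were. Without MC38-LM3a replicate 3 the numbers called higher in MC38-LM3b were 4 of 8 tested ligands, 9 of 17 other receptors, 24 of 32 adaptors, 20 of 27 attenuators, 14 of 20 ERK-responsive and 10 of 13 FOXO-responsive genes, where 52.2% of all genes were.

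**Figure D5:**
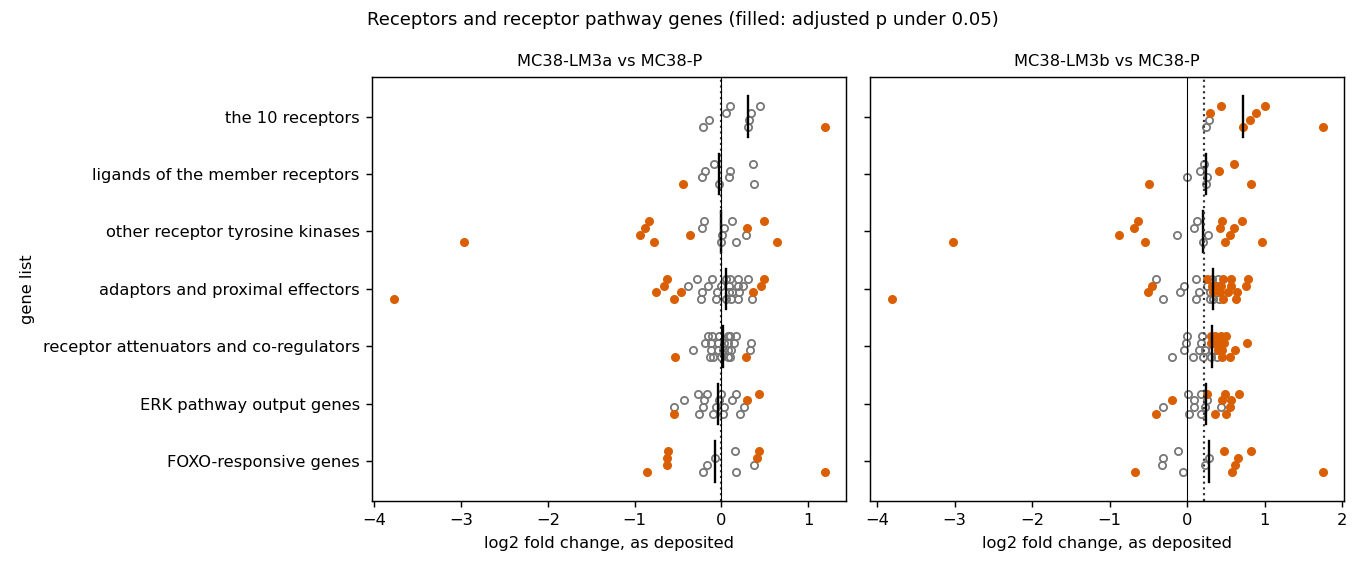
Log2 fold changes against MC38-P on deposited values for the tested genes of 7 lists, filled where the adjusted p is under 0.05 (limma). The vertical bar is the median of a list and the dotted line that of all genes. The 9 tested receptors have medians of 0.30 and 0.72, the other lists lie between -0.07 and 0.05 on the left and between 0.20 and 0.33 on the right, and Grb10 and Ephb2 are the points at the far left.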

How the data were processed

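Poly(A) RNA of 9 MC38 cultures, 3 per line, was sequenced on the DNBSEQ platform. The authors deposited TPM per gene, rounded to 2 decimals, in one file per library. The submitters' processing notes name HISAT and GRCm39 without versions, and the methods name DESeq2. No counts were used, so depth is unknown and no counting error is given. TPM were analysed as log2(TPM + 1), with a pseudocount of 1, in R 4.3.3 with limma 3.58.1. All 9 libraries entered a model of 3 group means with a variance trend. Genes reaching 1 TPM in 3 or more libraries (11287) were tested, with Benjamini-Hochberg adjustment. A loess fit of span 0.3 in each library on GC content and length of the longest GENCODE M21 transcript (98.3% of tested genes) gave the corrected values. Ratios were tested in SciPy 1.17.1. The receptors and gene lists were chosen with earlier results of these data known.

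Named were the 10 receptors, ligands reaching 1 TPM, Grb10, the 3 genes most like the most changed receptor (those most like the most abundant one are not reported here), and per list up to 3 rises and 3 falls called in both sublines. Other genes (Irs2, Igf1, Igf2, Gas6, Hgf, markers) were named after their values were seen. Groups came from the sample labels. Coordinates are from GRCm38, annotated separately from the files' build. Promoters were matched by symbol in RefSeq, which held 6 of the 10 receptors. The fit was also run on data simulated with independent noise in each library. Such data lack the trend along length between replicates, so they do not measure false calls here. Alternatives changed the pseudocount, filter, scaling, groups in the model, variance trend, replicate block and libraries.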

Additional observations from a re-analysis of the deposited data

How the results depend on the processing

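Igf1r was called higher in both comparisons with MC38-P under 22 of 22 alternatives, at 0.79 to 1.34 in MC38-LM3a (adjusted p up to 0.00964, limma) and 1.44 to 1.89 in MC38-LM3b (up to 0.00143). In MC38-LM3b Met, Mertk and Fgfr1 were called under 22 of 22 and Pdgfrb under 21 of 21 alternatives, Erbb2 under 14 of 22 and Axl under 12 of 22, and Egfr and Insr under 0 of 22.

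The count of receptors called in MC38-LM3a was 1 as reported (14.1% of all genes called higher). It was 5 with quantile normalization (21.5%) and 5 with median centring (19.8%). With the GC and length correction it was 7 (26.5%), and with the replicate block and correction 6 (24.4%). Without replicate 3 of MC38-P and MC38-LM3a it was 4, Igf1r higher and Axl, Egfr and Insr lower. In that setting 18.4% of all genes were called higher and 45.2% lower. With these libraries left out and corrected (chosen after seeing the data) it was 5, beside 29% of all genes higher and 28% lower. The count was 1 to 2 when 1 replicate was left out. With an absolute log2 fold change above 1 it was 0 without both libraries and 0 to 1 leaving out one (0 without MC38-LM3a replicate 3). In MC38-LM3b that count, 2 as reported, was 1 with quantile normalization, median centring, correction, block with correction and without both libraries, corrected or not, and 1 to 2 leaving out one. Pdgfrb, called in MC38-LM3b at 0.61 to 1.22 over its 21 alternatives, also passed this threshold under some of them and then added to the count. Past both thresholds as reported were 2.89% of all genes in MC38-LM3a and 3.93% in MC38-LM3b. These shares were not taken under the alternatives. Between the sublines 0 to 9 receptors were called leaving out one, and 9 without both libraries, where 65% of all genes were called higher. With both libraries left out and corrected 2 were called (Met 0.21 and Mertk 0.42), beside 14.5% of all genes higher and 16.3% lower. Without both libraries Axl, Egfr and Insr were called lower in MC38-LM3a, at -0.13, -0.41 and -0.58. In that setting 45.2% of all genes were called lower, and the median over all genes was -0.14.

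Signs turned for small values. In MC38-LM3a Erbb2 was -0.038 to 0.22 leaving out one (negative without MC38-LM3a replicate 3) and -0.13 without both libraries, Axl was -0.041 to 0.11 leaving out one (negative without replicate 3 of MC38-P or of MC38-LM3a) and -0.13 without both, Met was -0.00128 without both, and Egfr 0.031 without both and corrected. In MC38-LM3b Egfr was -0.00223 with quantile normalization, -0.038 with correction, -0.038 with block and correction and -0.022 without both and corrected, and Insr was -0.00718, -0.00718 and -0.027 under the last 3. Between the sublines Egfr was -0.023, -0.023 and -0.053 and Axl -0.026, -0.026 and -0.031 under the same 3. The cause of these moves was not tested.

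Over all genes in MC38-LM3b, 4013 were called higher and 1263 lower, against 2928 and 2767 with quantile normalization, 2586 and 2981 with median centring and 3250 and 3140 with correction. Same-numbered libraries did not deviate together (r from -0.66 to 0.07), so the numbers were not used as pairs. With the replicate block 1, 5 and 0 receptors were called in the 3 comparisons, and 2200 and 3891 of all genes in those with MC38-P against 3160 and 5276. Fits on only the 2 groups called 2105 and 6199. Without depth, changes of Erbb3 and of ligands under 1 TPM cannot be judged.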
